A study of Mus musculus with 12 samples.

Results

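The genes described here encode pattern recognition receptors of mouse innate immunity and the lectins that share their names. Their members are all gene symbols of the count table that begin with Tlr or Siglec followed by the usual number or letter, the Nlrp, Nlrc, Nlrx1, Nod1 and Nod2 genes, Aim2, and the Clec genes. This rule found 50 of 22317 symbols, of which 11 are Toll-like receptors (TLR), 13 are NOD-like receptors (NLR) together with Aim2, 21 are C-type lectins (Clec) and 5 are Siglecs. RNA sequencing was performed on 12 libraries, 3 in each of 4 groups, from wild-type male BALB/c mice of 8 weeks of age. Every mouse in these groups had received photothrombosis (PT), in which the injected dye Rose Bengal is activated by a laser so that clots close the vessels under the light spot. SB2 and SB4 are labelled as brain cortex on day 2 and day 4 after PT of the skull. BS2 and BS6 are labelled as interparietal bone, a bone of the skull, on day 2 and day 6 after PT of the brain. The study describes the libraries of a condition as biological replicates, which the labels do not tie to separate mice, so the p-values measure the spread between these libraries. Uninjured controls were not analysed here, so each comparison is between injured groups. The tissue held the ischemic and the surrounding region, so all cell types of a piece of tissue were measured together.

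Toll-like receptors sit on the cell surface or in endosomes and bind microbial lipids, flagellin or nucleic acids, or molecules that damaged cells release. They signal through the adaptors Myd88 and Ticam1 to NF-kappaB and interferon regulatory factors. NOD-like receptors and Aim2 do similar work in the cytosol, where Nod1 and Nod2 bind fragments of bacterial cell walls and Nlrp3, Nlrc4, Nlrp1b and Aim2 can assemble inflammasomes that activate caspase-1. C-type lectins are a mixed family, in which some members are activating or inhibitory receptors of myeloid cells and others are secreted or matrix proteins. Siglecs bind sialic acid on neighbouring molecules and mostly dampen immune cell activation. Microglia, border macrophages and blood-derived myeloid cells carry most of these receptors in the brain, while marrow and osteoclast lineage cells carry them in bone.

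Total counts ranged from 14126082 to 18972654 per library, and no pair of replicates agreed within counting noise. The tissue content of 2 groups went against their labels. The osteoblast and osteocyte marker list (9 of 12 genes in the table) summed to 39700 to 45200 CPM (counts scaled to the effective library size) in the libraries labelled SB2 and to 22500 to 83200 CPM in BS6, but only to 24.5 to 28.2 CPM in SB4 and 25.4 to 37.3 CPM in the libraries labelled BS2. The neuron list showed the reverse, with 74.6 to 123 CPM in SB2, 83.1 to 165 CPM in BS6, 12900 to 13800 CPM in SB4 and 12500 to 12900 CPM in BS2. Thus the libraries labelled SB2 hold abundant bone and few neuronal transcripts, and the libraries labelled BS2 the reverse. Both changes over days therefore also compare brain-rich with bone-rich libraries, and day and tissue content cannot be told apart in them. Whether the labels SB2 and BS2 were exchanged is not given in the sources used here, and groups were kept as labelled. If they were, SB2 against BS6 would compare bone and SB4 against BS2 would compare brain, each on different days after the same injury, while SB4 against SB2 and BS6 against BS2 would not be changes over days in a single tissue. In what follows, bone-rich refers to the libraries labelled SB2 and BS6 and brain-rich to those labelled SB4 and BS2. Since these are bulk libraries, fewer cells of a type and less RNA per cell cannot be told apart either.

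In the level of their transcripts, the receptor and lectin genes were far more abundant in the bone-rich libraries. They took 0.107% to 0.118% of all counts in SB2 and 0.122% to 0.18% in BS6, against 0.0293% to 0.0302% in SB4 and 0.0282% to 0.0297% in BS2. Of the 50 genes, 47 reached a mean of 1 CPM in at least one group and 33 reached 10 CPM. In both SB4 and BS2, 28 genes stayed under a mean of 1 CPM, and this was the case for 4 genes in both SB2 and BS6. Nlrp4c, Nlrp6 and Clec4g stayed under 1 CPM everywhere. In a library, 3 reads correspond to 0.158 to 0.212 CPM, so the levels of the scarcest genes there rest on a few reads. The map of all genes in the 12 libraries shows 2 blocks of 6 libraries, and within the bone-rich block replicate 2 of BS6 stands apart.

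**Figure D1:**
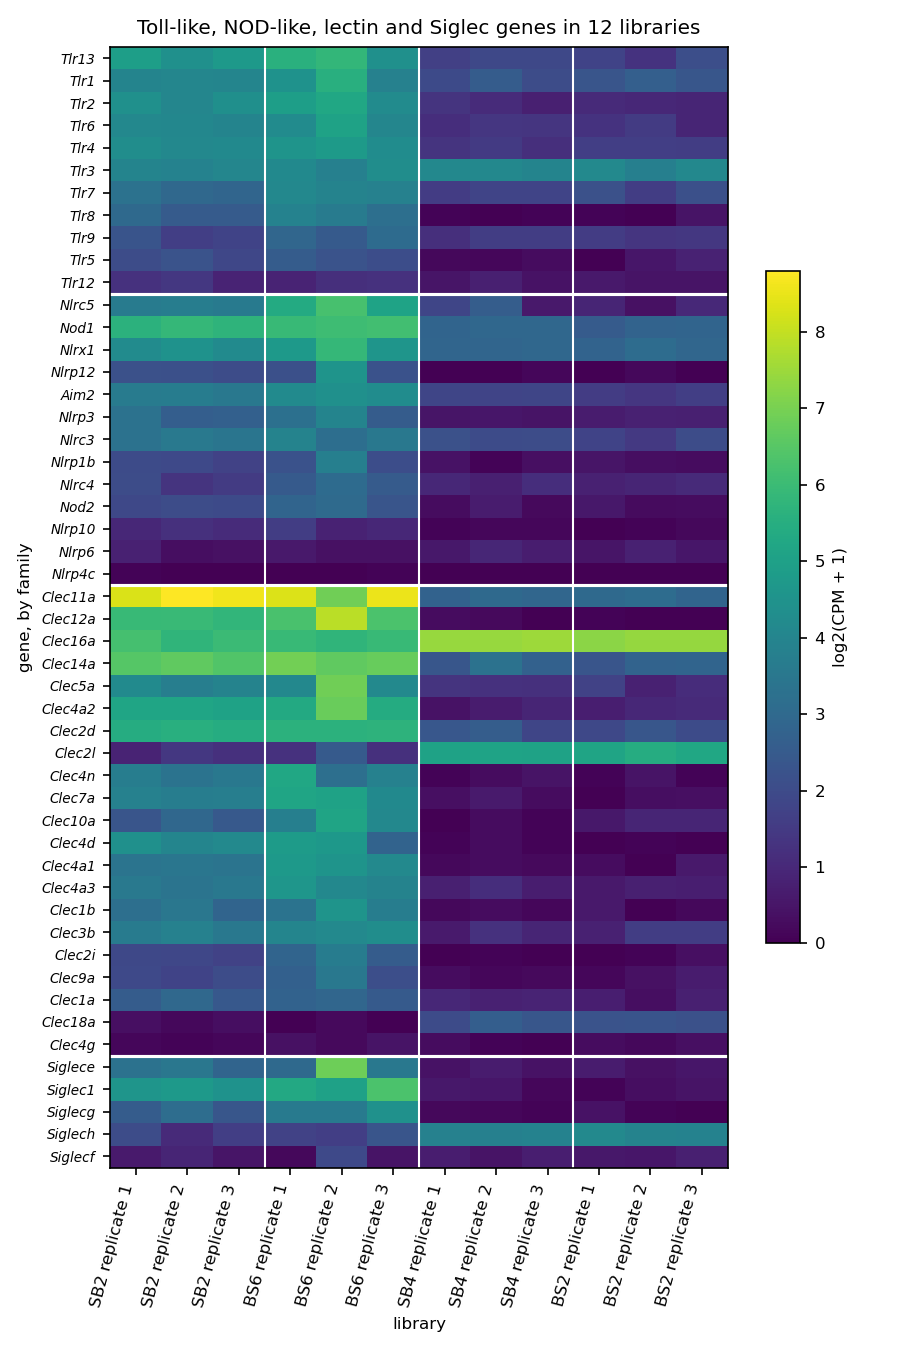
Levels of the 50 genes (rows, by family and by highest library) in the 12 libraries (columns), as log2(CPM + 1) by colour. Most rows are bright in the 6 libraries labelled SB2 and BS6 and dark in those labelled SB4 and BS2, while Clec16a, Clec2l, Siglech and Clec18a show the reverse and Tlr3 is even.

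By the labels, the first comparison follows the brain from day 2 to day 4 after PT of the skull. In the comparison of SB4 with SB2, 47 members were tested, of which 40 were lower, 4 were higher and 3 did not pass (edgeR quasi-likelihood test, adjusted p under 0.05 and absolute log2 fold change over 1). Among all 17293 genes tested, 28.6% were lower and 27.8% were higher, so the shares of lower and higher members (40 and 4 of 47) stood on either side of the background. The members' median log2 fold change was -3.50, whereas that of all genes was -0.01. The 4 higher genes were Clec16a, Clec18a, Clec2l and Siglech. Those that did not pass were Tlr3, Tlr9 and Siglecf. In 41 tested members every SB4 library lay below every SB2 library and in 4 above, while 43.1% and 42.4% of all genes did so.

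In the groups labelled as skull on day 2 and day 6 after PT of the brain, the direction was opposite. In BS6 against BS2, 46 members were tested, of which 41 were higher, 4 were lower and Tlr3 did not pass. The background was 29.0% higher and 26.5% lower among 17311 genes, and the median log2 fold change was 4.21 for the members and 0.02 for all genes. Clec16a, Clec18a, Clec2l and Siglech were the 4 lower genes. Every BS6 library lay above every BS2 library in 41 members and below in 4, against 39.7% and 41.0% of all genes. By gene, 40 of the 46 members tested in both comparisons were called lower in SB4 and higher in BS6, and 4 the reverse, against 25.2% and 24.0% of the 16953 genes tested in both. In a comparison added after the data were seen, which leaves out the libraries whose content went against the label and sets BS6 against SB4, 41 of 47 members were higher in BS6 and 4 were lower, against 28.8% and 26.5% of all genes. The direction of these calls followed the bone and neuron marker sums above, and the share of the days in it cannot be told apart.

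**Figure D2:**
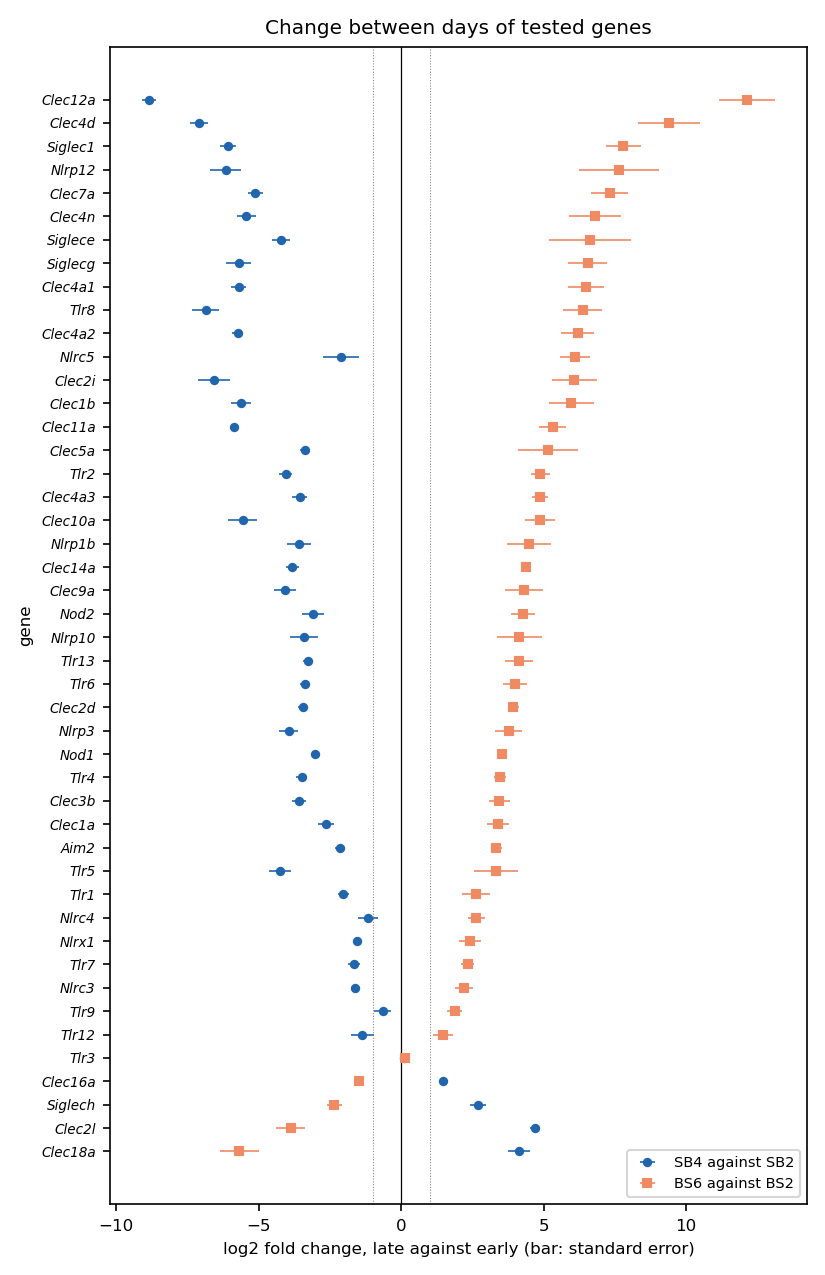
Log2 fold change of each gene tested in both comparisons, with its approximate standard error, for SB4 against SB2 (circles) and BS6 against BS2 (squares). Dotted lines mark a log2 fold change of 1 in size. Genes are ordered by the change in the skull-labelled groups, and the values of Clec12a, Clec4d, Nlrp12, Tlr8, Clec2i, Nlrp10 and Clec18a rest on a group with 1 to 3 reads in at least one of the comparisons.

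Among the TLR genes, 9 of 11 were lower in SB4 than in SB2, and 10 of 11 were higher in BS6 than in BS2. The cell surface receptors Tlr1, Tlr2 and Tlr6, which bind bacterial lipopeptides as pairs, shared this pattern. Tlr2 was at 20.2, 15.4 and 19.9 CPM in SB2 and at 1.49, 1.14 and 0.724 CPM in SB4. It was at 1.06, 0.961 and 0.872 CPM in BS2 and at 29.1, 36.7 and 18 CPM in BS6. Every bone-rich library lay above every brain-rich one. The log2 fold change of Tlr2 was -4.06 ± 0.23 (SE, n = 3 against 3, edgeR adjusted p = 1.61e-08) in SB4 against SB2 and 4.88 ± 0.34 (edgeR adjusted p = 3.47e-05) in BS6 against BS2. Tlr6 fell from 15.6 ± 0.824 CPM (SD, n = 3) in SB2 to 1.47 ± 0.228 in SB4, a log2 fold change of -3.39 ± 0.17, and rose from 1.38 ± 0.494 in BS2 to 21.7 ± 9.03 in BS6, a log2 fold change of 4.00 ± 0.42. Tlr1 kept more of its level in the brain-rich libraries. It was at 2.91, 4.84 and 3.12 CPM in SB4 and 3.95, 5.31 and 4.07 CPM in BS2, against 14.6, 15.5 and 15.0 CPM in SB2. Its BS6 libraries were at 21.1, 46.0 and 13.5 CPM, and its log2 fold change of 2.64 ± 0.49 against BS2 included the high value of replicate 2, without which it was 2.0 and the BS6 mean of 26.8 CPM was 17.3 CPM. Tlr1 and Tlr6 are neighbouring genes with similar sequences on chromosome 5, so reads could have been split between them by the counting, which is not given in the sources used here.

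Tlr4, the receptor for lipopolysaccharide, was at 19.0, 16.0 and 17.0 CPM in SB2 and at 22.4, 27.0 and 18.4 CPM in BS6. In the brain-rich libraries it was at 1.49, 1.79 and 1.28 CPM in SB4 and 2.12, 2.11 and 2.03 CPM in BS2. Both bone-rich groups were clear of both brain-rich groups, with log2 fold changes of -3.50 ± 0.18 (SB4 against SB2, edgeR adjusted p = 5.28e-09) and 3.47 ± 0.20 (BS6 against BS2, edgeR adjusted p = 1.77e-05). Tlr5, the receptor for flagellin, was scarce throughout, with means of 3.16 CPM in SB2, 0.158 CPM in SB4, 0.416 CPM in BS2 and 3.98 CPM in BS6, and passed the test in both comparisons.

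Endosomal receptors for nucleic acids were less uniform. Tlr13, which binds bacterial ribosomal RNA, was at 29.4, 20.2 and 26.1 CPM in SB2 against 2.20, 2.72 and 2.79 CPM in SB4, and at 47.2, 55.1 and 20.1 CPM in BS6 against 2.42, 1.47 and 3.34 CPM in BS2. Its log2 fold changes were -3.28 ± 0.18 and 4.13 ± 0.50. Tlr8, a receptor for single-stranded RNA fragments, was near the floor in the brain-rich libraries. It had 122, 72 and 78 reads in SB2 but only 2 reads over the 3 SB4 libraries, a ratio of 140 with a 95% interval of 38.4 to 1160. Such ratios are given for members that held 1 to 3 reads in a group, and their exact intervals cover counting error only. In BS6 it was at 13.8, 11.7 and 8.15 CPM, and in BS2 at 0.059, 0 and 0.363 CPM. Its close relative Tlr7 differed less, with 8.83, 6.93 and 6.35 CPM in SB2, 1.92, 2.5 and 2.51 CPM in SB4, 3.48, 2.05 and 3.41 CPM in BS2, and 16.0, 14.3 and 13.6 CPM in BS6. No library of SB2 overlapped with BS6 or SB4 in Tlr7. The log2 fold changes of Tlr7 were -1.66 ± 0.21 in SB4 against SB2 and 2.33 ± 0.24 in BS6 against BS2. Tlr9, the receptor for unmethylated CpG DNA, did not pass in SB4 against SB2 (log2 fold change -0.65 ± 0.30, edgeR adjusted p = 0.0669) and was higher in BS6 than in BS2 (1.88 ± 0.26, edgeR adjusted p = 0.000638).

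Tlr3, the receptor for double-stranded RNA, was the TLR gene that passed in neither comparison. It was at 14.6, 13.8 and 15.2 CPM in SB2, 16.0, 16.0 and 14.6 CPM in SB4, 16.7, 13 and 16.3 CPM in BS2, and 17.0, 13.2 and 18.8 CPM in BS6. All 4 groups overlapped. The log2 fold change was 0.10 ± 0.11 in SB4 against SB2 (edgeR adjusted p = 0.378) and 0.13 ± 0.18 in BS6 against BS2 (edgeR adjusted p = 0.543). A part of its exons, 7.32% of their length, is shared with the gene Gm45542 on the other strand, and whether the counts used strand is not given in the sources used here.

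Per kilobase of exon, which allows genes to be compared, the order of the TLR genes therefore differed between libraries of different content. In the brain-rich groups Tlr3 led, at 2.99 ± 0.154 CPM per kb in SB4 and 2.95 ± 0.392 in BS2, and every library lay above the highest of the next gene, Tlr1 (1.08 ± 0.316 and 1.33 ± 0.226). In SB2, Tlr2 (6.13 ± 0.892 CPM per kb) and Tlr13 (5.86 ± 1.09) overlapped at the top, and Tlr1 (4.49 ± 0.14) and Tlr6 (4.20 ± 0.221) followed, overlapping only by their nearest libraries. In BS6, Tlr13, Tlr2 and Tlr1 had means of 9.48, 9.27 and 8.02 CPM per kb and overlapped. Tlr3 had rank 6 in SB2 (2.79 ± 0.136) and rank 7 in BS6 (3.14 ± 0.544).

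**Figure D3:**
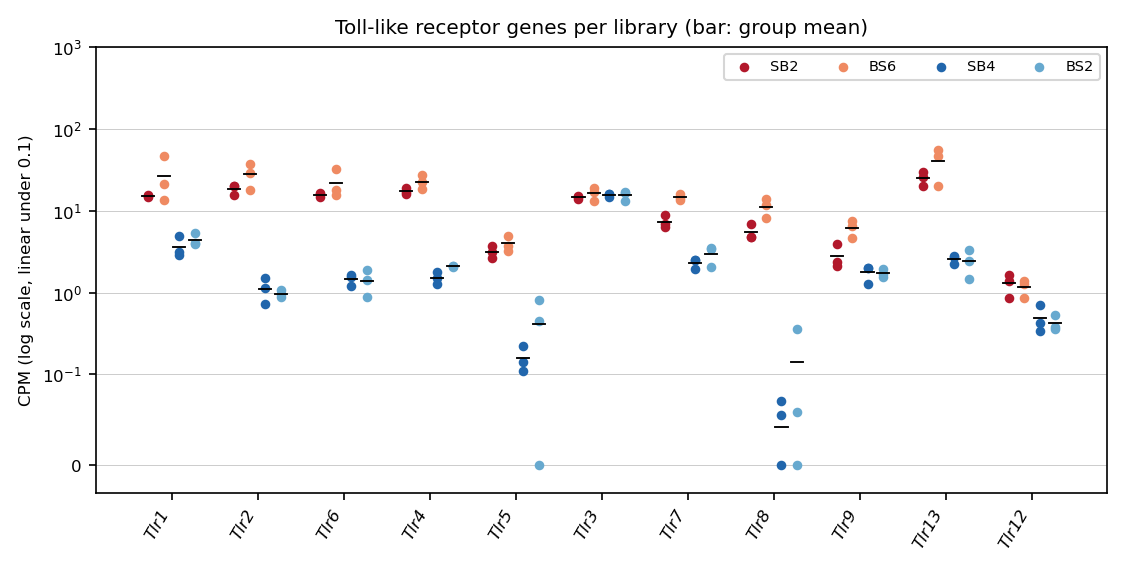
CPM of the 11 Toll-like receptor genes in each library, as points by group with the group mean as a bar, on a log axis that is linear under 0.1. The bone-rich groups SB2 and BS6 lie above the brain-rich groups SB4 and BS2 for most genes, while the 4 groups lie together for Tlr3.

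All 11 NLR genes tested were lower in SB4 than in SB2 and higher in BS6 than in BS2. Nod1, which binds cell wall fragments of mainly Gram-negative bacteria, was the most abundant per kb in SB2 (10.4 ± 0.687 CPM per kb), BS6 (12.7 ± 0.98) and SB4 (1.28 ± 0.0674). It was at 49.7, 56.5 and 52.1 CPM in SB2 and 6.10, 6.63 and 6.74 CPM in SB4, and at 4.78, 5.96 and 6.17 CPM in BS2 and 59.2, 65.1 and 69.1 CPM in BS6. The replicates of Nod1 lay close together and its log2 fold changes were -3.01 ± 0.10 (edgeR adjusted p = 1.26e-10) and 3.55 ± 0.14 (edgeR adjusted p = 5.97e-06). Nod2, the receptor for muramyl dipeptide, was scarcer, with means of 2.95 CPM in SB2 and 5.82 CPM in BS6 as against 0.326 CPM in SB4 and 0.294 CPM in BS2. In BS2, Nlrx1, a mitochondrial member of the family, led with 1.17 ± 0.144 CPM per kb, overlapping with Nod1 (1.11 ± 0.148).

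Nlrx1 was also among the NLR genes that differed least. It was at 17.7, 21.6 and 17.5 CPM in SB2 and 6.38, 6.25 and 6.74 CPM in SB4 (log2 fold change -1.54 ± 0.13), and at 6.02, 7.62 and 6.46 CPM in BS2 and 25.2, 56.4 and 22.9 CPM in BS6 (2.42 ± 0.39). Of its exon length, 11.9% is shared with the gene Gm10686 on the other strand. Nlrc3, described as a brake on TLR and other innate signalling, was at 9.06, 10.7 and 9.71 CPM in SB2 and 3.55, 2.99 and 3.12 CPM in SB4, with log2 fold changes of -1.61 ± 0.17 and 2.21 ± 0.31.

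Nlrc5, the transcriptional activator of MHC class I genes, was uneven among replicates. Its libraries were at 11.7, 12.3 and 11.3 CPM in SB2, 2.55, 5 and 0.501 CPM in SB4, 0.885, 0.320 and 1.02 CPM in BS2, and 40.0, 74.0 and 33.5 CPM in BS6. The SB4 libraries were far apart, and the SB4 mean of 2.69 CPM was 1.53 CPM without replicate 2. Nlrc5 was called lower in SB4 than in SB2 (log2 fold change -2.12 ± 0.64, edgeR adjusted p = 0.0244, and -2.98 without SB4 replicate 2), but this call was lost without any one SB2 library or without SB4 replicate 1, with edgeR adjusted p of up to 0.0863. Over all alternatives its adjusted p ranged from 0.000282 to 0.0863. The rise in BS6 against BS2 was larger, at 6.09 ± 0.52 (edgeR adjusted p = 8.27e-05).

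The inflammasome sensors passed the test in both comparisons as well. Aim2, the sensor of cytosolic DNA, was at 11.6, 12 and 10.4 CPM in SB2, 2.55, 2.5 and 2.56 CPM in SB4, 1.95, 1.60 and 2.11 CPM in BS2, and 17.3, 20.4 and 18.3 CPM in BS6, with log2 fold changes of -2.15 ± 0.16 and 3.34 ± 0.18. Nlrp3, which responds to many kinds of cell stress, had means of 6.54 ± 2.19 CPM in SB2, 0.417 ± 0.0238 in SB4, 0.695 ± 0.0934 in BS2 and 9.29 ± 4.89 in BS6. Nlrc4, the partner of the flagellin-binding Naip proteins, was lower in SB4 (0.975 CPM) than in SB2 (2.19 CPM), a call that was lost without SB2 replicate 1 (log2 fold change -0.81, edgeR adjusted p = 0.061, over all alternatives 0.00503 to 0.061) or without SB4 replicate 2. The BS6 mean was 5.59 CPM, against 0.918 CPM in BS2. Of Nlrp12, which restrains myeloid inflammation, there were 165 reads over the SB2 libraries and 2 over the SB4 libraries, a ratio of 85.0 with a 95% counting interval of 23.2 to 708.

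Of the 20 C-type lectin genes tested in each comparison, 17 were lower in SB4 than in SB2 and 17 were higher in BS6 than in BS2, and the other 3 were Clec16a, Clec18a and Clec2l. The most abundant by group mean was Clec11a, a secreted lectin also named stem cell growth factor or osteolectin, which promotes bone formation. It was at 315, 442 and 387 CPM in SB2 and at 318, 116 and 372 CPM in BS6, against 5.82, 7.07 and 6.52 CPM in SB4 and 7.08, 7.56 and 6.10 CPM in BS2. Per kb, its mean led the lectins of SB2 (128 ± 21.4 CPM per kb) and BS6 (90.2 ± 45.3). Its lowest BS6 library, at 38.9 CPM per kb, lay below the Clec2d libraries of BS6 (40.2 to 41.4). The log2 fold changes were -5.87 ± 0.15 (edgeR adjusted p = 1.54e-10) and 5.31 ± 0.49 (edgeR adjusted p = 0.000114). In BS6 it was lowest in replicate 2, the library with the lowest osteoblast and osteocyte sum.

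Clec14a, Clec3b and Clec1b were called in the same direction as Clec11a. Clec14a, a glycoprotein of endothelial cells, was at 87.8, 98.8 and 83.7 CPM in SB2 and 119, 99.3 and 107 CPM in BS6, against 4.11, 8.92 and 5.57 CPM in SB4 and 4.01, 5.96 and 6.17 CPM in BS2. The sum of the endothelial list moved with it, at 1020 to 1140 CPM in SB2 and 1090 to 1330 CPM in BS6, against 180 to 224 CPM in SB4 and 147 to 208 CPM in BS2. Cldn5 alone of this list did not, with means of 18.5 CPM in SB2 and 28.2 CPM in BS6, against 23.8 CPM in SB4 and 19.0 CPM in BS2. The part of the endothelium in the result was not tested. Clec14a had log2 fold changes of -3.83 ± 0.23 and 4.38 ± 0.19. Clec3b, or tetranectin, a plasminogen-binding protein of plasma and matrix, had log2 fold changes of -3.59 ± 0.26 and 3.44 ± 0.36. Clec1b, the platelet receptor for podoplanin, had means of 8.23 ± 2.05 CPM in SB2 and 14.7 ± 7.08 in BS6, against 0.157 ± 0.0546 in SB4 and 0.225 ± 0.274 in BS2. The platelet and megakaryocyte list (8 of 10 genes in the table) stood at 443 to 510 CPM in SB2 and 499 to 930 CPM in BS6, and at 18.8 to 44.7 CPM in SB4 and 20.4 to 27.5 CPM in BS2. Vwf made up most of this sum, at means of 261 CPM in SB2, 392 CPM in BS6, 22.2 CPM in SB4 and 16.8 CPM in BS2. Every other gene of the list also had higher means in the bone-rich groups.

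A stretch of 6.55 megabases on chromosome 6 (mm10, 122921848 to 129472779) holds 12 of these lectin genes, from Clec4a1 to Clec7a. All 12 were lower in SB4 than in SB2, with log2 fold changes of -8.85 to -2.64, and all 12 were higher in BS6 than in BS2. Among all genes tested, 28.6% were lower in SB4 and 29.0% were higher in BS6, and the other genes of the stretch were not counted. Most of the 12 lectin genes encode receptors of immune cells or ligands of such receptors, and several are close paralogs whose counts may share reads. In all, 15 of the 50 genes lie on chromosome 6.

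Within this stretch, Clec12a, an inhibitory receptor of myeloid cells for uric acid crystals, had the widest range. It was at 60.1, 61.3 and 53.9 CPM in SB2 and 0.213, 0.163 and 0 CPM in SB4, a log2 fold change of -8.85 ± 0.25 (edgeR adjusted p = 4.85e-11), or -8.23 without SB4 replicate 3. The SB4 libraries held 6 reads in all, so the counting error is larger than this SE. In BS6 Clec12a was at 76.0, 236 and 77.6 CPM, while the BS2 libraries held 1 read in all, which gives a ratio of 6120 with a 95% counting interval of 1100 to 242000. Clec4d, which pairs with other lectins in recognition of mycobacterial and fungal glycolipids, was at 20.2, 14.9 and 16.5 CPM in SB2 and 27.5, 24.8 and 5.92 CPM in BS6, against 6 reads in SB4 and 1 read in BS2 over the 3 libraries each. For BS6 against BS2 this is a ratio of 901 with a 95% interval of 161 to 35600. The fungal receptors Clec7a (Dectin-1) and Clec4n (Dectin-2) were likewise near the floor in the brain-rich libraries. Clec7a was at 13.4, 12.2 and 12.4 CPM in SB2, 0.284, 0.544 and 0.223 CPM in SB4, 0, 0.256 and 0.291 CPM in BS2, and 35.3, 32.3 and 17.0 CPM in BS6. Clec4n was at 12.2, 9.19 and 10.4 CPM in SB2 and 37.0, 8.27 and 13.4 CPM in BS6, where replicate 1 moved the mean from 10.9 to 19.6 CPM.

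The Clec4a genes encode paralogous receptors of dendritic cells and macrophages, of which Clec4a2 (DCIR) is inhibitory. Clec4a2 was at 35.0, 35.0 and 32.8 CPM in SB2 and 39.5, 110 and 41.0 CPM in BS6 (mean 63.5 CPM, or 40.2 CPM without replicate 2), against 0.355, 0.598 and 0.891 CPM in SB4 and 0.649, 0.961 and 1.09 CPM in BS2. Clec4a1 was at 9.51, 9.99 and 9.52 CPM in SB2, 26.0, 22.4 and 16.5 CPM in BS6, 0.142, 0.217 and 0.167 CPM in SB4, and 0.236, 0 and 0.508 CPM in BS2. The log2 fold changes of Clec4a1 were -5.70 ± 0.26 in SB4 against SB2 and 6.49 ± 0.62 in BS6 against BS2, the latter being 5.89 without BS2 replicate 2 and 7.40 without BS2 replicate 3. Clec4a3 had smaller ones, at -3.57 ± 0.25 and 4.87 ± 0.29. Clec2d, a ligand of the natural killer cell receptor Klrb1b that also inhibits osteoclast formation, was tight among replicates, with 43.1 ± 1.81 CPM in SB2, 49.4 ± 0.753 in BS6, 3.94 ± 1.25 in SB4 and 3.28 ± 0.772 in BS2. Its log2 fold changes were -3.45 ± 0.18 and 3.94 ± 0.19.

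Outside the stretch, Clec5a, which signals through Tyrobp in myeloid cells, was at 17.5, 12.7 and 14.2 CPM in SB2 and 1.49, 1.41 and 1.34 CPM in SB4 (log2 fold change -3.38 ± 0.19). In BS6 it was at 16.0, 117 and 16.7 CPM, so that the mean of 49.8 CPM was 16.4 CPM without replicate 2. Clec10a, a galactose-binding receptor of macrophages and dendritic cells, was at 3.99, 6.66 and 4.46 CPM in SB2, 0, 0.217 and 0.0557 CPM in SB4, 0.472, 0.897 and 0.872 CPM in BS2, and 13, 34.3 and 16.1 CPM in BS6. The 2 marker lists nearest to these receptors moved the same way. The macrophage and monocyte list (10 genes) summed to 1260 to 1470 CPM in SB2 and 1710 to 2940 CPM in BS6, against 105 to 128 CPM in SB4 and 106 to 117 CPM in BS2, with no marker at 0. The neutrophil list (10 of 12 genes in the table) summed to 941 to 1700 CPM in SB2 and 1530 to 26500 CPM in BS6, against 3.23 to 6.31 CPM in SB4 and 1.12 to 2.18 CPM in BS2, where Ly6g was at 0. The part of these cell types in the lectin results was not tested.

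The genes that went the other way were few. Clec16a, which despite its name takes part in autophagy and mitochondrial turnover in many cell types, was at 171, 170 and 180 CPM in SB4 and 154, 167 and 168 CPM in BS2, against 71.8, 53.0 and 62.2 CPM in SB2 and 59.7, 52.4 and 59.4 CPM in BS6. Its log2 fold change was 1.48 ± 0.10 in SB4 against SB2 (edgeR adjusted p = 1.24e-07) and -1.47 ± 0.10 in BS6 against BS2 (edgeR adjusted p = 2.62e-05). Clec16a was thus abundant on both sides, and its difference was the smallest of the 4. Clec2l, a lectin known mainly from brain, was at 32.6, 33.3 and 32.6 CPM in SB4 and 34.1, 42.1 and 36.3 CPM in BS2, against 0.854, 1.66 and 1.34 CPM in SB2 and 1.37, 4.65 and 1.34 CPM in BS6. The log2 fold changes of Clec2l were 4.69 ± 0.17 and -3.88 ± 0.51 (-4.75 without BS6 replicate 2), and per kb it led the lectins of SB4 (23.0 ± 0.279 CPM per kb) and BS2 (26.3 ± 2.88), ahead of Clec16a (20.8 ± 0.695 and 19.4 ± 0.928). In BS6, whose Clec2l mean of 2.45 CPM was 1.35 CPM without it, replicate 2 held the highest Clec2l level and also the highest neuron sum, 165 CPM against 83.1 and 87.5 CPM. Clec18a, a secreted lectin, was at 2.98, 5.11 and 4.07 CPM in SB4 and 3.72, 3.91 and 3.49 CPM in BS2, but at 0.285, 0.133 and 0.244 CPM in SB2. In BS6 it had 3 reads in all, against 172 in BS2, a ratio of 58.9 with a 95% counting interval of 19.8 to 288.

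Siglech, a receptor of microglia and plasmacytoid dendritic cells that pairs with Tyrobp, was at 13.6, 13.3 and 13.9 CPM in SB4 and 16.4, 14.2 and 13.8 CPM in BS2, against 3.08, 1.07 and 2.08 CPM in SB2 and 2.35, 2.11 and 4.01 CPM in BS6. The brain-rich libraries all lay above the bone-rich ones, with log2 fold changes of 2.70 ± 0.28 (SB4 against SB2, edgeR adjusted p = 5.3e-06) and -2.35 ± 0.27 (BS6 against BS2, edgeR adjusted p = 0.000287). Microglial markers differed in direction among themselves. P2ry12 had means of 40.0 CPM in SB4 and 48.2 CPM in BS2 against 10.4 CPM in SB2 and 14.2 CPM in BS6, and Sall1 had 22.2 and 18.8 CPM against 5.88 and 7.07 CPM. The sum of the 9 microglia markers was higher in the bone-rich libraries, at 1000 to 1110 CPM in SB2 and 480 to 1010 CPM in BS6 against 180 to 191 CPM in SB4 and 188 to 207 CPM in BS2, most of it from Olfml3 (566 CPM in SB2 and 379 CPM in BS6 against 9.03 CPM in SB4 and 9.82 CPM in BS2) and Tmem119 (328 and 221 CPM against 16.9 and 15.3 CPM). The list of 10 plasmacytoid dendritic cell markers summed to 921 to 994 CPM in SB4 and 884 to 919 CPM in BS2, against 292 to 346 CPM in SB2 and 282 to 404 CPM in BS6, in the same direction as Siglech. Tcf4 and Pacsin1, which neurons also express, made up most of this sum in the brain-rich libraries, at means of 437 and 503 CPM in SB4 and 459 and 434 CPM in BS2. Bst2, Irf8, Spib and Il3ra were lower there than in the bone-rich groups, with Bst2 at 3.46 CPM in SB4 and 1.61 CPM in BS2 against 77.4 CPM in SB2 and 83.4 CPM in BS6. The part of these cell types in the level of Siglech was not tested.

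**Figure D4:**
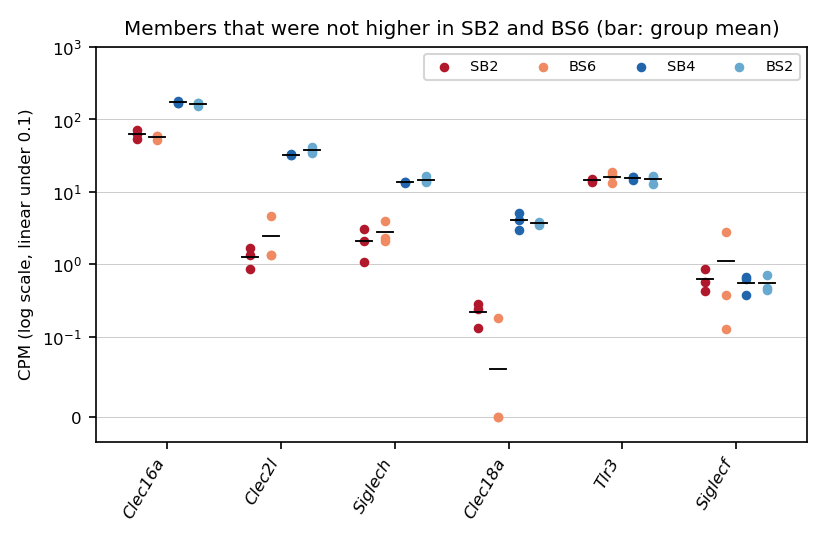
CPM in each library, as points by group with the group mean as a bar, of the 4 genes that were higher in the brain-rich libraries (Clec16a, Clec2l, Siglech, Clec18a), of Tlr3 and of Siglecf, on a log axis that is linear under 0.1. The first 4 genes have the SB4 and BS2 points on top, and for Tlr3 the groups overlap.

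The other Siglecs were higher in the bone-rich libraries, except Siglecf. Siglec1, or CD169, marks resident macrophages such as those of marrow, and was at 23.2, 25.8 and 21.4 CPM in SB2, 0.497, 0.435 and 0.111 CPM in SB4, 0.059, 0.256 and 0.363 CPM in BS2, and 38.6, 31.5 and 77.3 CPM in BS6. Its log2 fold changes were -6.08 ± 0.27 and 7.80 ± 0.61. Siglecg, an inhibitory receptor of B cells, was at 4.96, 7.79 and 4.09 CPM in SB2 and 11.2, 11.2 and 20.6 CPM in BS6, against 0.142, 0.109 and 0.0557 CPM in SB4 and 0.354, 0.064 and 0 CPM in BS2. The B lineage list (9 of 11 genes in the table) summed to 60.8 to 76.7 CPM in SB2 and 83.1 to 156 CPM in BS6, against 4.46 to 5.44 CPM in SB4 and 3.89 to 5.01 CPM in BS2, and both Siglecg and this sum were highest in replicate 3 of BS6. Siglece, an inhibitory receptor of neutrophils and macrophages, was at 8.89, 10.1 and 6.11 CPM in SB2 and 0.355, 0.598 and 0.334 CPM in SB4 (log2 fold change -4.23 ± 0.31). In BS6 it was at 7.11, 115 and 10.4 CPM, and the mean of 44.1 CPM was 8.77 CPM without replicate 2. Siglecf, a receptor of eosinophils, stayed under 1 CPM in every library except BS6 replicate 2, at 2.84 CPM, and its log2 fold change in SB4 against SB2 was -0.14 ± 0.43 (edgeR adjusted p = 0.777).

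A direct test of whether the change over days differed between the skull-labelled and the brain-labelled groups was fitted over all 12 libraries. The signed change from SB2 to SB4 was subtracted from that from BS2 to BS6. Of 48 members tested, 41 were called with a difference above 0 and 4 with one below 0, or 93.8%, against 73.6% of all 18068 genes. Both changes ran in opposite directions in these members, so a difference above 0 does not mean a change of larger size. Clec11a, called above 0, had 5.31 in BS6 against BS2 and -5.87 in SB4 against SB2. As each change also runs between libraries of opposite tissue content, these differences hold the tissue difference from both sides. Tlr3 again did not pass (0.03 ± 0.20, edgeR adjusted p = 0.882).

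Comparisons between groups of like content remove most of this difference. Between SB2 and BS6, 45 members were tested, of which none was higher and 4 were lower in SB2, while 0.741% and 1.11% of all 16329 genes were called higher and lower. At an unadjusted p under 0.05 (edgeR) there were 21 members, while the share of all genes under it was not counted. DESeq2 called 10 members lower and none higher in SB2, where it called 752 lower and 320 higher of all 22174 genes. The members' median log2 fold change was -0.86, against -0.02 for all genes, and without BS6 replicate 2 these medians were -0.38 and -0.01. In 23 tested members every SB2 library lay below every BS6 library, and in none above, while 17.8% and 20.3% of all genes did so. The 4 called genes were Nlrc5 (log2 fold change -2.08 ± 0.32, edgeR adjusted p = 0.0325), Clec10a (-2.09 ± 0.43, edgeR adjusted p = 0.0469), Clec4a1 (-1.18 ± 0.19, edgeR adjusted p = 0.0327) and Tlr7 (-1.0 ± 0.18, edgeR adjusted p = 0.0364). Their libraries, given above, did not overlap between SB2 and BS6. Of 14 alternatives, Nlrc5 and Clec4a1 were called in 8, Clec10a in 7 and Tlr7, at the fold threshold, in 4. DESeq2 did not call 1 of the 4 genes. Aim2 passed the adjusted p but not the fold threshold, at -0.73 ± 0.13 (edgeR adjusted p = 0.0384).

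These 4 calls rested on few libraries. None of the 4 was left without any one SB2 library or without BS6 replicate 1 or 3. Without BS6 replicate 3, 1 other member was called lower, and without BS6 replicate 2, 8 members were. Over all genes no call was left without any one SB2 library. There were 17 higher and 17 lower without BS6 replicate 1, 17 and 15 without BS6 replicate 3, and 270 and 397 without BS6 replicate 2. By their labels the groups differ in tissue, injured site and day, which cannot be told apart here. The erythroid list (8 of 10 genes in the table) was at 1300 to 4610 CPM in SB2 and 7760 to 12800 CPM in BS6. Lists that were higher in BS6 without overlap were those of conventional dendritic cells (87.6 to 102 against 178 to 298 CPM, 8 of 10 genes in the table), macrophages and monocytes (1260 to 1470 against 1710 to 2940 CPM), the B lineage (60.8 to 76.7 against 83.1 to 156 CPM) and T and NK cells (10 to 12.1 against 17.6 to 26.7 CPM, 6 of 12 genes in the table). The conventional dendritic cell sum was carried by Cd74 (mean 52.3 CPM in SB2 and 176 CPM in BS6). Of that list, Batf3 alone had a lower mean in BS6 (2.1 CPM in SB2 and 1.24 CPM in BS6). The largest part of the B lineage sum was Ebf1 (mean 38.5 CPM in SB2 and 54.3 CPM in BS6). Of the B lineage list, Ms4a1 alone had a lower mean in BS6 (4.17 CPM in SB2 and 3.67 CPM in BS6). The macrophage and monocyte sum was carried by Lyz2 (mean 629 CPM in SB2 and 1650 CPM in BS6), and of the other 9 genes 6 had higher means in BS6, such as Csf1r (216 and 261 CPM) and Ccr2 (78.5 and 121 CPM), and Cd68, Cd163 and Vcam1 had lower ones. The neutrophil, plasmacytoid dendritic cell (292 to 346 against 282 to 404 CPM) and eosinophil, basophil and mast cell (61.4 to 76.3 against 48.1 to 108 CPM) lists overlapped. No gene of these lists was at 0 in either group, and their part in the result was not tested.

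Much of the spread within BS6 came from replicate 2. Of the 47 members at 1 CPM or more, 25 (53.2%) were highest in that library, and 16 (34.0%) were there over 2 times the mean of the other two. Among all 17263 genes at that level the shares were 41.8% and 10.3%. Its neutrophil sum was 26500 CPM against 1530 and 3570 CPM in replicates 1 and 3, while its osteoclast sum was 1720 against 3120 and 3660 CPM. Siglece was 13.1 times as high as the mean of replicates 1 and 3, Siglecf 11.1 times (2.84 against 0.256 CPM) and Clec5a 7.11 times. Nlrp12 was 6.32 times as high, Nlrp1b 3.86 times, Clec2l 3.44 times and Clec12a 3.07 times. Clec11a and Clec4n were at 0.336 and 0.328 times that mean. Without replicate 2 the BS6 mean of Clec12a was 76.8 CPM in place of 130 CPM, that of Nlrp12 was 3.57 in place of 9.91 CPM and that of Nlrp1b 3.38 in place of 6.60 CPM. Nod1 (65.1 CPM against 59.2 and 69.1), Clec2d (49.1 against 48.8 and 50.2) and Tlr7 (14.3 against 16.0 and 13.6) did not stand out there. The part of the cell types named by these lists was not tested.

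**Figure D5:**
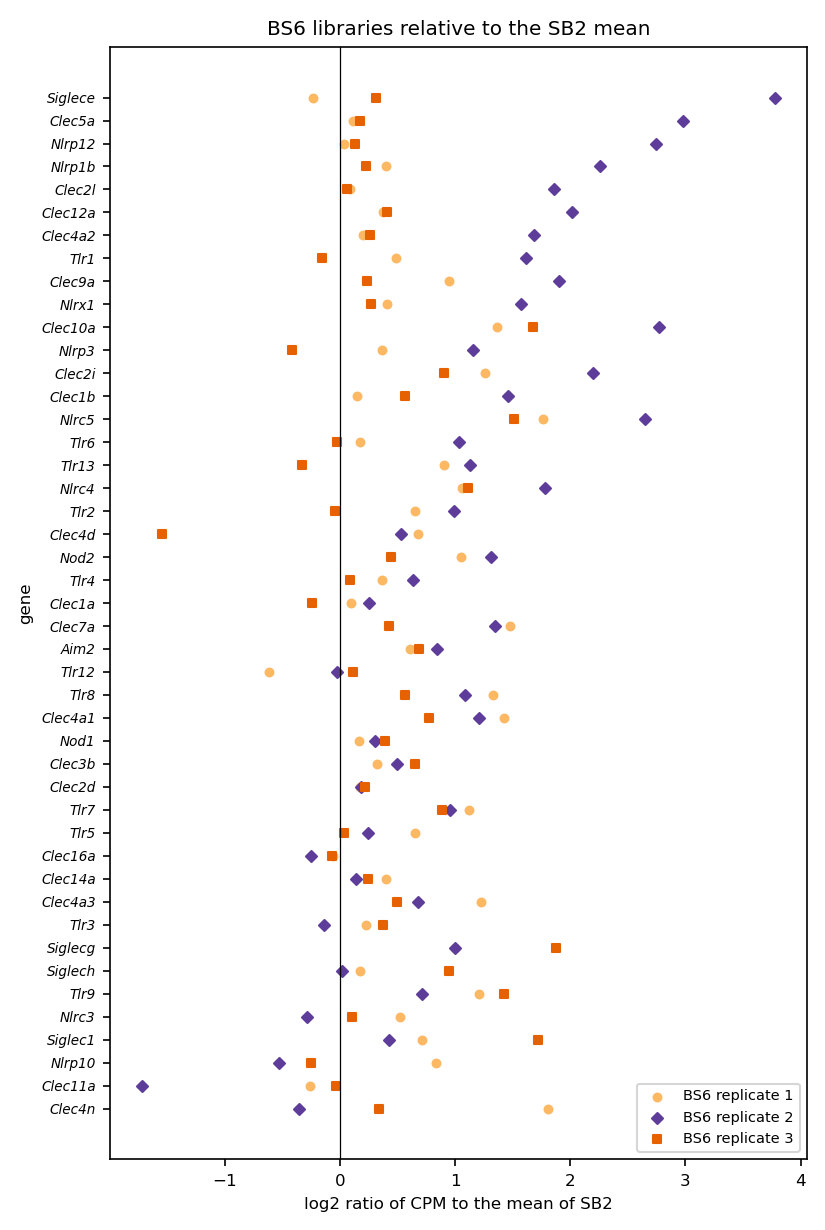
Log2 ratio of the CPM of each BS6 library to the mean of the 3 SB2 libraries, for the 45 genes tested in that comparison, ordered by the ratio of replicate 2 to the mean of replicates 1 and 3. Replicate 2 (diamonds) lies far to the right for Siglece, Clec5a and Nlrp12 and to the left for Clec11a, while the 3 libraries lie together for Clec2d and Tlr7.

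Between the brain-rich groups SB4 and BS2, 27 members had enough reads to be tested and none was called (edgeR), as against 0.086% of genes higher and 0.0614% lower. DESeq2 called none as well. At an unadjusted p under 0.05 (edgeR), where the share of all genes was again not counted, there was 1 member, Clec2l. It was at 32.9 ± 0.398 CPM in SB4 and 37.5 ± 4.12 in BS2 (log2 fold change -0.21 ± 0.08, edgeR adjusted p = 0.308). The libraries of 3 tested members lay wholly higher and of 2 wholly lower in SB4, while 10% and 6.51% of all genes did so. Members over 10 CPM in both groups had narrow estimates, such as 0.00 ± 0.12 for Tlr3, 0.08 ± 0.06 for Clec16a and -0.14 ± 0.11 for Siglech. Nod1, at means of 6.49 CPM in SB4 and 5.64 CPM in BS2, had 0.19 ± 0.16. For scarce members the estimates were wider, such as 1.84 ± 0.95 for Nlrc5, which was called higher in SB4 when SB4 replicate 3 was left out (2.35, edgeR adjusted p = 0.00179, over all alternatives 0.00179 to 1.0). The remaining 23 members had too few reads for the test. One of these, Clec10a, was picked out after its values were seen, since its SB4 libraries (0, 0.217 and 0.0557 CPM, 5 reads) all lay below its BS2 libraries (0.472, 0.897 and 0.872 CPM, 34 reads). It was called lower in SB4 without the filter on low counts, without BS2 replicate 1 and without SB4 replicate 2, with edgeR adjusted p of 0.0219 to 0.867 over the alternatives that tested it.

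Genes of the receptors' pathways were counted in the same comparisons, where 28.6% of all genes were lower and 27.8% higher in SB4 than in SB2, and 29.0% higher and 26.5% lower in BS6 than in BS2. Of 28 adaptor and signalling genes of TLRs, 15 were lower and 2 higher in SB4 than in SB2, and 17 were higher and 1 lower in BS6 than in BS2, the rest not being called. Myd88, the adaptor of most TLRs, was at 41.7 CPM in SB2 and 3.09 CPM in SB4 (log2 fold change -3.73 ± 0.14), and at 3.05 CPM in BS2 and 51.9 CPM in BS6 (4.12 ± 0.45). Irf7, the interferon regulatory factor downstream of the endosomal TLRs, had log2 fold changes of -3.52 ± 0.46 and 6.42 ± 0.81. Sarm1, a family member that acts in axon degeneration, was called in the other direction both times, with 36.1 CPM in SB4 and 32.6 CPM in BS2 against 4.30 CPM in SB2 and 3.62 CPM in BS6. Tollip, an inhibitor of TLR signalling, was the other higher gene in SB4 (175 against 80.4 CPM). The adaptor Traf3 passed in neither comparison, with group means between 57.1 and 67 CPM.

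Of 12 co-receptors and trafficking partners, 8 were lower in SB4 and none was higher, and 9 were higher in BS6 and none was lower. Cd14, the co-receptor of Tlr4, had log2 fold changes of -3.86 ± 0.45 and 3.89 ± 0.36, and Ly96, which binds lipopolysaccharide with Tlr4, had -1.89 ± 0.27 and 2.34 ± 0.31. Unc93b1, which carries the nucleic acid receptors to the endosome, was at 67.4 CPM in SB2, 10.4 CPM in SB4, 9.23 CPM in BS2 and 150 CPM in BS6, and was called lower in SB2 than in BS6 (-1.17 ± 0.19, edgeR adjusted p = 0.0327). Hsp90b1, the chaperone of TLR folding, was the one partner called higher in SB2 than in BS6 (1.09 ± 0.19, edgeR adjusted p = 0.0364). Like all calls between SB2 and BS6, both were lost when any one SB2 library was left out.

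Inflammasome and NOD partners were called lower in SB4 in 9 of 14 tested and higher in BS6 in 10 of 14, with none in the other direction. The caspase-1 substrate Il1b was at 29.3 CPM in SB2, 0.460 CPM in SB4, 0.383 CPM in BS2 and 10.9 CPM in BS6. Gsdmd, which forms the pores of pyroptosis, had log2 fold changes of -3.80 ± 0.11 and 5.28 ± 0.34. By contrast Il18, the other cytokine of the inflammasome, was called in neither comparison, with means of 11.7, 15.4, 16.3 and 12.9 CPM in SB2, SB4, BS2 and BS6 and a log2 fold change of 0.39 ± 0.12 in SB4 against SB2, under the fold threshold (edgeR adjusted p = 0.00923). Txnip, which can bind Nlrp3, was lower in SB2 than in BS6 (198 against 508 CPM, -1.38 ± 0.22, edgeR adjusted p = 0.0327). This call was lost when any one SB2 library was left out.

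Among 16 tested partners of lectin receptors and Siglecs, 13 were lower and 1 was higher in SB4, and among 17 in the skull-labelled groups 15 were higher and 1 was lower in BS6. Tyrobp and Fcer1g, the adaptors through which activating lectins and Siglech signal, had log2 fold changes of -3.98 ± 0.13 and -4.38 ± 0.18 in SB4 against SB2, and of 4.92 ± 0.44 and 5.67 ± 0.61 in BS6 against BS2. Tyrobp was thus lower in the libraries in which Siglech was higher. Syk, the kinase behind these adaptors, was at 68.3 CPM in SB2, 4.76 CPM in SB4, 3.74 CPM in BS2 and 151 CPM in BS6. The gene that went the other way was Mag, a Siglec of myelin that the symbol rule leaves out, at 83.7 CPM in SB4 and 71.9 CPM in BS2 against 1.99 CPM in SB2 and 3.19 CPM in BS6. Cd209a, a lectin of dendritic cells, was lower in SB2 than in BS6 (-1.30 ± 0.27, edgeR adjusted p = 0.0484), a call also lost when any one SB2 library was left out.

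As many of the receptors moved together, the letters before their transcription starts were read from RefSeq windows of the build GRCm38.p6, which reach from 250 bases before to 50 bases after a start. Windows were found for 41 of the 50 genes, 51 windows in all. The core motif of PU.1, the factor of the myeloid lineage, was searched as GAGGAAG on both strands and lay in 16 of 51 windows (31.4%), against 13.6% of all 32851 windows. It was present in 11 of 31 genes that were lower in SB4 than in SB2, in 2 of 4 that were higher and in 2 of 3 that did not pass. The interferon-stimulated response element, searched by its consensus on both strands, lay in 3 windows (5.88%, against 3.44% of all), and the GC box, searched as GGGCGG, lay in 12 (23.5%, against 35.7%). A match describes letters and not a bound site.

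The following 150 bases before the start show genes from both sides of the pattern, 5′ to 3′ on the strand of the gene, with PU.1 cores and GC boxes of either strand in capitals. Siglece and Clec5a, which were lower in SB4 than in SB2, hold 2 PU.1 cores each, written CTTCCTC since they lie on the other strand. Clec16a, higher in the brain-rich libraries, holds 1 PU.1 core (CTTCCTC) and 1 GC box (CCGCCC), Clec2l holds 1 GC box, and Siglech holds none of the motifs searched. The positions are chr7:43660162-43660311 on the minus strand for Siglece, chr6:40585806-40585955 on the minus strand for Clec5a, chr16:10545189-10545338 on the plus strand for Clec16a, chr6:38662919-38663068 on the plus strand for Clec2l and chr7:55768034-55768183 on the plus strand for Siglech.
Siglece: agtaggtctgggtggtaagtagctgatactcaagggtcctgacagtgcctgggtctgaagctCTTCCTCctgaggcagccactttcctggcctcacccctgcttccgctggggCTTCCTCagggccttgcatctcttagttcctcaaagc
Clec5a: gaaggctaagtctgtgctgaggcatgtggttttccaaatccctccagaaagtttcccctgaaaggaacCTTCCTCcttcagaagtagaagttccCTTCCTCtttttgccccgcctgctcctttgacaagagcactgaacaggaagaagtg
Clec16a: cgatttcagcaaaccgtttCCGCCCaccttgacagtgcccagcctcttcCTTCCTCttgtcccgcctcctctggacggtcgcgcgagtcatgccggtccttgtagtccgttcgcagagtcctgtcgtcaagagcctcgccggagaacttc
Clec2l: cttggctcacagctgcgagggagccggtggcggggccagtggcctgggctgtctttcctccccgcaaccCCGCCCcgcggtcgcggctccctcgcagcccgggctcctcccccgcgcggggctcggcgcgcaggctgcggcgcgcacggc
Siglech: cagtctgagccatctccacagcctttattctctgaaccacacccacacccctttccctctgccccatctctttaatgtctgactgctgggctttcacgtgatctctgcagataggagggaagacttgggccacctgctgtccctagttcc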

How the data were processed

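RNA sequencing of poly(A) RNA was performed by the authors, who trimmed reads with fastp and aligned them with HISAT2 2.1.0 (submitters' processing notes) to mm10. The deposited values are raw whole-number counts per gene symbol. The counting tool, annotation and use of strand are not given in the sources used here, nor whether the counts precede the batch correction named in the methods. Members and lists were chosen with earlier results of these data known. Groups followed the labels. Genes were filtered with filterByExpr (minimum count 10) and each pair of groups was fitted with the edgeR 4.0.16 quasi-likelihood test (R 4.3.3, TMM factors, robust, two-sided), with Benjamini-Hochberg adjustment over all genes tested. Genes were called at an adjusted p below 0.05 where the log2 fold change also exceeded 1 in size. CPM used TMM factors over 12 libraries. CPM per kb used GENCODE M21 exon lengths. DESeq2 1.42.0, other scalings and filters, a joint fit and leaving out each library were alternatives. Members were named with values at 1 CPM or more in a group, and with full statistics at 10 CPM or more. The range of total counts per library is given in the report. The SE of a log2 fold change was taken as its size divided by the square root of the quasi-likelihood F statistic. This SE is approximate. Where a group held few reads it can be smaller than counting error, such as for Clec12a, Clec4a1 and Siglec1 in SB4 against SB2.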

Additional observations from a re-analysis of the deposited data

Results flagged for a closer look

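The change over days differed between the skull-labelled and the brain-labelled groups in most of the genes with full statistics, by a test of the difference itself (edgeR quasi-likelihood test over all 12 libraries). The values are the log2 change from BS2 to BS6 minus that from SB2 to SB4, so they add a difference between bone-rich and brain-rich libraries from both sides, and day and tissue content cannot be told apart. Among Toll-like receptors the difference was Tlr1 4.69, Tlr13 7.43, Tlr2 8.95, Tlr4 6.98, Tlr6 7.41, Tlr7 4.00 and Tlr8 13.24. Among NOD-like receptors and Aim2 it was Aim2 5.5, Nlrc3 3.83, Nlrc5 8.23, Nlrx1 3.98 and Nod1 6.58. Among C-type lectins it was Clec10a 10.44, Clec11a 11.20, Clec12a 21.01, Clec14a 8.24 and Clec1b 11.60, and further Clec2d 7.40, Clec3b 7.05, Clec4a1 12.21, Clec4a2 11.95, Clec4a3 8.46, Clec4d 16.51, Clec4n 12.25, Clec5a 8.56 and Clec7a 12.45. Among Siglecs it was Siglec1 13.89, Siglece 10.88 and Siglecg 12.26. The difference was negative for Clec16a -2.94, Clec2l -8.55 and Siglech -5.04. Fitted values of genes with 1 to 3 reads in a group, such as Clec12a, Clec4d and Tlr8, depend on the prior count. Leaving out one library moved several of these differences by over 1.5-fold. Without BS6 replicate 2, Siglece was at 8.54, Clec5a at 6.94, Clec4a2 at 11.28, Tlr1 at 4.04 and Clec2l at -9.43. Without SB4 replicate 2, Clec10a was at 11.86 and Nlrc5 at 9.07. Without BS2 replicate 1, Clec7a was at 11.82 and Siglecg at 14.17. Without BS2 replicate 3, Tlr8 was at 15.04. Clec1b lay between 11.01 and 13.26 (without BS2 replicate 2 or 1), Clec4a1 between 11.61 and 13.07 (BS2 replicate 2 or 3), Clec12a between 20.25 and 22.91 (BS6 replicate 2, SB4 replicate 3 or BS2 replicate 1), Clec4n between 11.36 and 13.55 (BS6 replicate 1, SB4 replicate 3 or BS2 replicate 2), and Clec4d reached 18.43 without BS2 replicate 2 and also moved without SB4 replicate 2.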

How the results depend on the processing

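No member called in SB4 against SB2, in BS6 against BS2 or in the difference of these changes changed direction under an alternative run. Of those not called, Siglecf and Tlr3 changed sign. With one library left out, Siglecf lay between -0.34 and 0.16 in SB4 against SB2 and between -0.87 and 1.70 in the difference, and Tlr3 between -0.13 and 0.16 in the difference (log2), and Tlr3 also changed sign under other scalings, filters and DESeq2. When 10 counts were required of each library, which leaves fewer members to test, 17 of 22 members were called lower in SB4 than in SB2 (3396 of 13718 genes) and 19 of 23 higher in BS6 than in BS2 (3461 of 13661 genes). In the signed difference of these changes, 16 of 20 were called above 0 (4654 of 13290 genes). The 4 members called lower in SB2 than in BS6 became 2 with total counts alone. DESeq2 called 10, without 1 of the 4, and one fit over all 12 libraries called 12. The calls over all genes went from 121 higher and 182 lower to 164 and 125, 320 and 752, and 326 and 947 under these settings. The count of members lay between 0 and 8 when one library was left out (0 without any one SB2 library or BS6 replicate 1, 1 without BS6 replicate 3, which was none of the 4, and 8 without BS6 replicate 2). The cause was not tested. With the replicate number as a block, 0 members and 0 of all genes were called there. Same-numbered libraries did not deviate together (correlations of -0.0912 to 0.0624), so the numbers were not taken to pair the samples. Between SB4 and BS2, leaving out one library gave between 0 and 1 members higher and between 0 and 1 lower, and no filter gave 1 lower. The median of all genes moved to -0.145 with upper-quartile factors in SB4 against SB2. DESeq2 gave no adjusted p for Siglece in 2 comparisons and for Clec5a in the difference of the changes. Depth limits the members with a few reads in the brain-rich libraries.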
